A study of Mus musculus with 10 samples.

Results

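The Hox genes of the 4 mammalian clusters were taken from the table of counts as every gene symbol made of Hox, a cluster letter from a to d and a paralogue number. The rule found 39 of the 24540 named genes. Hoxa held 11 of them on chromosome 6, Hoxb 10 on chromosome 11, Hoxc 9 on chromosome 15 and Hoxd 9 on chromosome 2. In the RefSeq annotation of GRCm38, the assembly also called mm10, the clusters span 105.5 kb (chr6:52155367-52260880, minus strand), 173.9 kb (chr11:96194316-96368254, plus strand), 115.7 kb (chr15:102921131-103036856, plus strand) and 96.9 kb (chr2:74668225-74765142, plus strand). Polyadenylated RNA was sequenced from mouse embryonic stem (ES) cells and from cells differentiated from them, with 2 libraries in each of 5 groups. DMSO 24 h cells were ES-derived cells labelled cardiomyocytes that received the solvent DMSO alone for 24 h. TCDD 24 h, 72 h and 96 h cells were the same kind of cells given 5 nM of the dioxin TCDD, which binds and activates the transcription factor AHR (aryl hydrocarbon receptor), for that time. ES cells were the untreated, undifferentiated parental C57BL/6N-C2 line, kept with leukemia inhibitory factor. The labels give C57BL/6 as the strain and describe differentiation with Noggin for 1 day and BMP4 for 2 days, then puromycin at 3 µg/ml until day 14. Puromycin resistance and EGFP were driven by an Nkx2.5 promoter plasmid in transfected cells, so the ES-derived groups are a drug-selected population. The vehicle was sampled at 24 h only, so at 72 h and 96 h TCDD exposure and longer culture cannot be told apart. The labels do not say whether libraries of a group came from separate cultures, so p-values reflect library-to-library spread alone, which could be purely technical.

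Hox genes encode homeodomain transcription factors that give cells their position along the head-to-tail axis of the embryo. Within a cluster they lie in the order in which they are expressed, a property called collinearity: low-numbered paralogues at the 3′ end come on first and mark anterior levels, and high-numbered paralogues at the 5′ end come on last and mark posterior levels. In ES cells the clusters are held by Polycomb repression, and retinoic acid, Wnt and Cdx factors open them during differentiation. In the heart, 3′ genes such as Hoxb1 and Hoxa3 mark progenitors of the posterior second heart field, which contribute to the outflow tract and the atria.

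Start-site windows of 300 bases (250 before the start and 50 after it, RefSeq GRCm38.p6) were at hand for 22 Hox genes, with 24 windows in all. These windows held a median of 14.5 CpG dinucleotides, from 4 to 45, against a median of 7 over all 32851 windows of the genome. Windows are shown for Hoxb1, the member with the lowest adjusted p against ES cells, for Hoxd1 and Hoxc4, which differed from ES cells in opposite directions, and for Hoxd13, the Hoxd gene with the highest level. They lie on the plus strand at chr11:96365508-96365807 (Hoxb1), chr2:74762730-74763029 (Hoxd1), chr15:103034145-103034444 (Hoxc4) and chr2:74667975-74668274 (Hoxd13). Capitals mark every match, on either strand, to 4 motifs: the AHR core GCGTG, the retinoic acid receptor core AGGTCA, the Cdx motif TTTATG and the PBX-HOX motif TGATNNAT.
Hoxb1: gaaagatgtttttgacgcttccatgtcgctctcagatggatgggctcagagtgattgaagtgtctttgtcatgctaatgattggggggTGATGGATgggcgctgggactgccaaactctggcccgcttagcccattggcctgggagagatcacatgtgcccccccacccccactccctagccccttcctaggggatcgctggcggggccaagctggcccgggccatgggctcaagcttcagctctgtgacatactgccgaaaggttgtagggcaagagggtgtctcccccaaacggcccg
Hoxd1: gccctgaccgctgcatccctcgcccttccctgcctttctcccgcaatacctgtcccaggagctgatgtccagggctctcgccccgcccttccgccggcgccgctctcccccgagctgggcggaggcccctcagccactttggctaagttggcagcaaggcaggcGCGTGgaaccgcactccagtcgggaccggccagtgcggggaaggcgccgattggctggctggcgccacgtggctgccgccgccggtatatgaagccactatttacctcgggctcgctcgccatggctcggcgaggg
Hoxc4: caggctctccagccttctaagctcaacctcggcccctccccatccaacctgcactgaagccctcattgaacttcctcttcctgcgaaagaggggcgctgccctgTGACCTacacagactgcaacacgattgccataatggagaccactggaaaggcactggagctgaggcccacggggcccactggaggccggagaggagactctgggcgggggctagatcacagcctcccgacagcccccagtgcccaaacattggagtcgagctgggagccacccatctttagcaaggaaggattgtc
Hoxd13: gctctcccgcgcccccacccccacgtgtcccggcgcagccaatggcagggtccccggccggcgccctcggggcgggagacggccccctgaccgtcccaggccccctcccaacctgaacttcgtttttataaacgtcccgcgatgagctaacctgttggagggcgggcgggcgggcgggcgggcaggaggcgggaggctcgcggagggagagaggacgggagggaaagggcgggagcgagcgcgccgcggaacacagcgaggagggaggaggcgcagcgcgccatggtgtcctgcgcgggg
The capitals in Hoxb1 are a PBX-HOX match, and the Hoxb1 promoter is known as an autoregulatory element at which HOXB1 binds with PBX partners. Hoxd1 holds 1 AHR core, Hoxc4 holds 1 retinoic acid receptor core on the opposite strand, and Hoxd13 holds no match. The AHR core was in 9 of the 24 Hox windows (37.5%), against 32.4% of all windows. The retinoic acid receptor core was in 29.2% of Hox windows against 16.3% of all, the Cdx motif in 20.8% against 11.9%, and the PBX-HOX motif in 16.7% against 8.8%. Hox windows also had more GC, with a median of 57.7% against 52.7% in all windows. A match says only that these letters occur there.

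**Figure D1:**
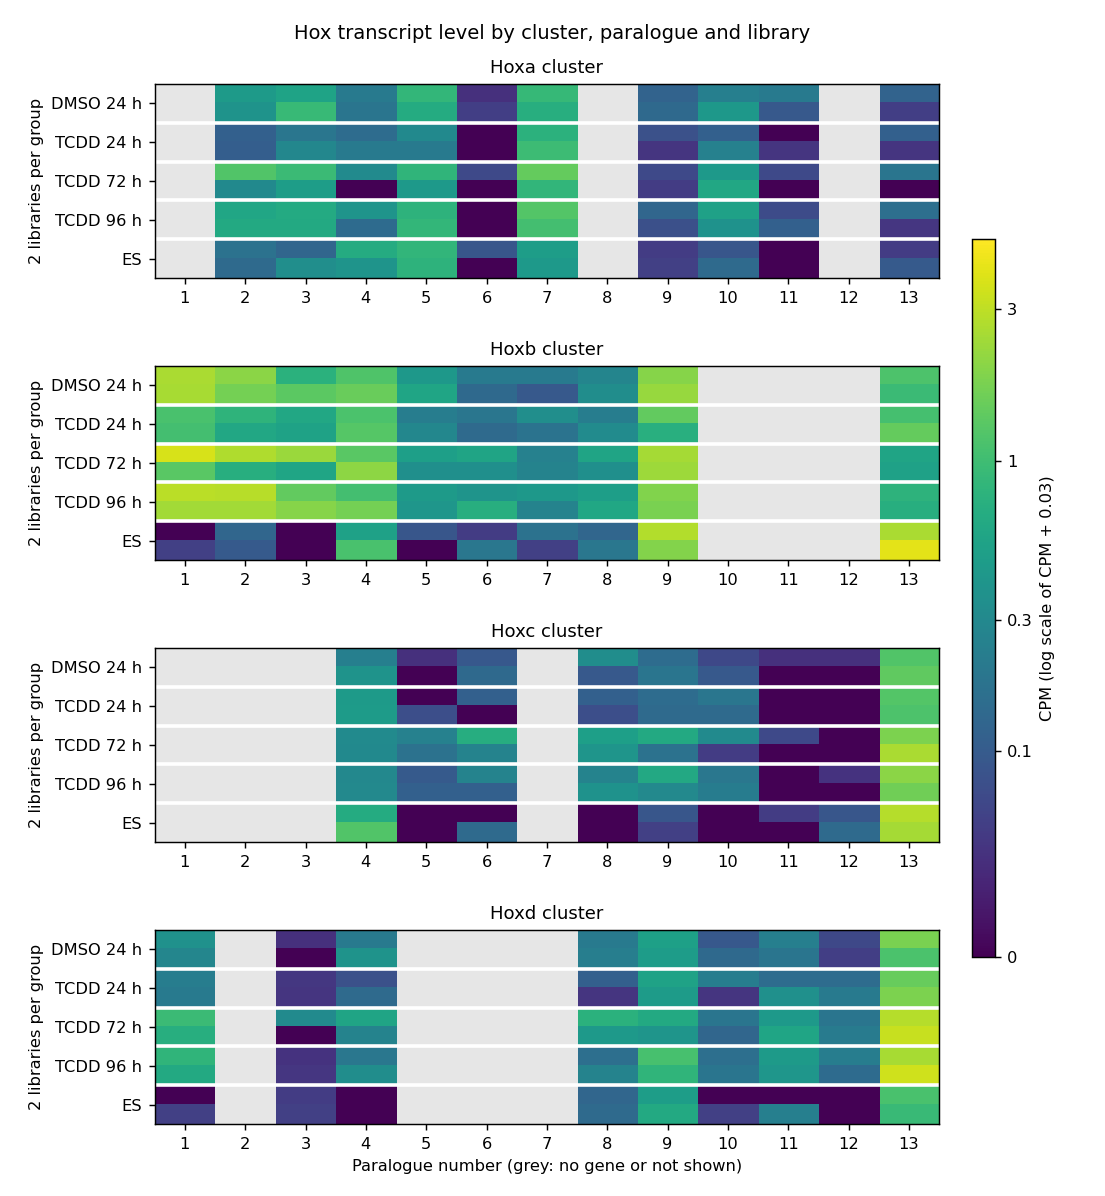
CPM (counts scaled by library size with TMM factors, colour on a log scale) of Hox genes by paralogue number (x axis, grey where there is no gene or none is shown) in the 10 libraries (1 row per library, 2 rows per group), with 1 panel per cluster. Hoxb1, Hoxb2 and Hoxb3 are dark in ES cells and bright in the other groups.

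Hox transcripts were scarce in all groups. The 39 genes summed to 30.4 and 30.2 CPM in DMSO 24 h cells, 21.4 and 19.6 CPM in TCDD 24 h cells, 40.2 and 30.5 CPM in TCDD 72 h cells, 41.7 and 40.7 CPM in TCDD 96 h cells, and 19.3 and 21.5 CPM in ES cells. A mean of at least 1 CPM was reached by 9 members in DMSO 24 h cells, 7 in TCDD 24 h cells, 9 each in TCDD 72 h and 96 h cells and 5 in ES cells. No member was at 0 in every library. Both ES libraries had 0 counts of Hoxa11, Hoxb3, Hoxc5, Hoxc8, Hoxc10, Hoxd4 and Hoxd12. Both TCDD 24 h libraries had 0 counts of Hoxa6, Hoxc11 and Hoxc12, both TCDD 72 h libraries of Hoxc12, and both TCDD 96 h libraries of Hoxa6 and Hoxc11, while every member had at least 1 count in DMSO 24 h cells. Libraries held 15326612 to 31192459 counts in genes, so that 0 counts allow up to 0.0917 to 0.19 CPM, depending on the library and for counting error only. In bulk RNA, fewer cells that express a gene and less RNA per cell cannot be told apart.

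Levels per exon length, which allow genes to be compared, were averaged over the 8 libraries labelled cardiomyocytes. Leading members of the clusters by this measure averaged 1.06 CPM per kb for Hoxb2, 1.05 for Hoxb1, 0.916 for Hoxd13, 0.659 for Hoxc13, 0.399 for Hoxa7, 0.32 for Hoxd11 and 0.145 for Hoxc8. Among them Hoxb2 and Hoxb1 had nearly the same level per length, with library values of 0.378 to 1.76 and 0.503 to 1.74 CPM per kb. By group, the means for Hoxa7 were 0.322, 0.351, 0.462 and 0.463 CPM per kb and for Hoxd11 0.196, 0.232, 0.459 and 0.394 CPM per kb in DMSO 24 h, TCDD 24 h, 72 h and 96 h cells, with 0.186 and 0.11 CPM per kb in ES cells. Among Hoxb13, Hoxc13, Hoxb1 and Hoxb2 the order in ES cells was another one: Hoxb13 had 1.49 ± 0.463 CPM per kb and Hoxc13 1.07 ± 0.0845 (SD, n = 2), whereas Hoxb1 had 0.0117 ± 0.0166 and Hoxb2 0.0709 ± 0.0152. Thus, of these genes, the posterior Hoxb13 and Hoxc13 lay above the anterior Hoxb1 and Hoxb2 in ES cells. This is not an order of all anterior and posterior members. In DMSO 24 h cells Hoxb1 and Hoxb2 were at 1.22 ± 0.0116 and 1.13 ± 0.15 CPM per kb, above the 0.48 ± 0.0659 CPM per kb of Hoxb13 and the 0.53 ± 0.047 CPM per kb of Hoxc13.

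Levels were also summed by paralogue number and by cluster. Paralogues 1 to 3 (8 genes) summed to 17.05 and 17.06 CPM in DMSO 24 h cells, against 5.36 and 6.02 CPM in ES cells. Paralogues 4 to 8 (15 genes) summed to 5.44 and 5.54 CPM in DMSO 24 h cells, against 3.86 and 4.70 CPM in ES cells. Paralogues 9 to 13 (16 genes) summed to 7.95 and 7.60 CPM in DMSO 24 h cells, against 10.1 and 10.8 CPM in ES cells. Hoxb13 and Hoxc13 account for this lower sum: the other 14 genes of the class summed to 5.56 and 5.26 CPM in DMSO 24 h cells, against 4.75 and 4.26 CPM in ES cells. The libraries of both groups did not overlap in any of the 3 classes. By cluster, Hoxa, Hoxb and Hoxd sums were higher in both DMSO 24 h libraries than in both ES libraries (14.0 and 13.6 against 7.44 and 7.69 CPM for Hoxa, 10.8 and 11.4 against 6.43 and 7.64 CPM for Hoxb, 3.48 and 2.92 against 1.77 and 2.11 CPM for Hoxd). The Hoxc sum was lower, at 2.20 and 2.29 CPM in DMSO 24 h cells and 3.68 and 4.07 CPM in ES cells, through Hoxc4 and Hoxc13. The other 7 Hoxc genes summed to 0.734 and 0.525 CPM in DMSO 24 h cells, against 0.221 and 0.343 CPM in ES cells. These sums carry no test.

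**Figure D2:**
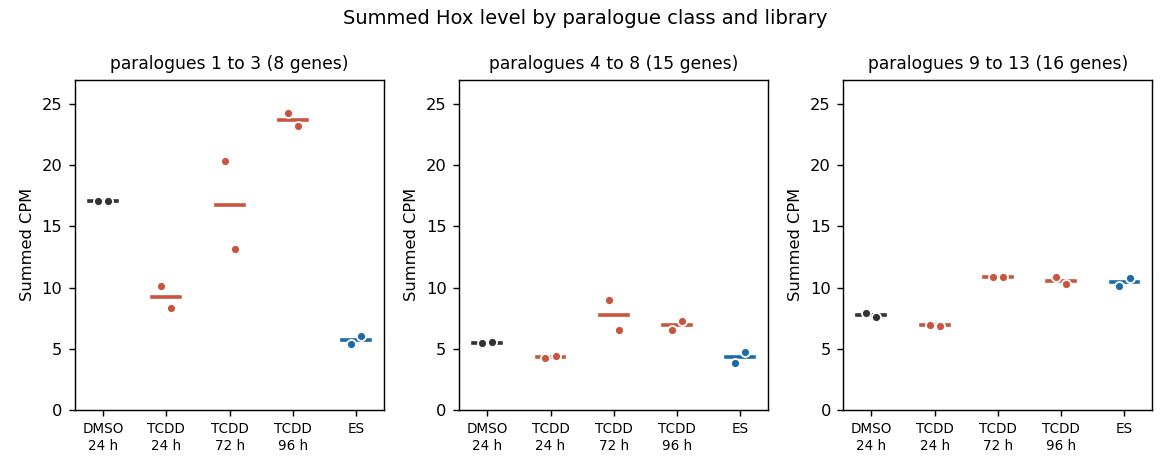
Summed CPM of Hox genes by paralogue class (panels) in each library (points) with the group mean (lines), for DMSO 24 h, the 3 TCDD times and ES cells. Paralogues 1 to 3 sum to 17.05 and 17.06 CPM in DMSO 24 h cells, 10.1 and 8.30 CPM in TCDD 24 h cells, 24.3 and 23.2 CPM in TCDD 96 h cells and 5.36 and 6.02 CPM in ES cells.

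Of the 10 libraries, 3 stood apart from the rest. The range of the trend of log2 level with GC content of genes was 1.97 in ES replicate 2 and 1.10 in TCDD 24 h replicate 1, and 0.095 to 0.583 in the other 8. TCDD 72 h replicate 1 gave 10.95% of its counts to the ribosomal precursor Rn45s and had 2777 CPM of the nuclear RNA Malat1. At the GC content of Hox genes the trend shifted levels by 0.41 in ES replicate 2 and 0.24 in TCDD 24 h replicate 1 on the log2 scale. Among Hox genes with at least 10 counts in a group, the replicate difference measured as chi-square per gene was 0.896 in DMSO 24 h, 1.04 in TCDD 24 h and in TCDD 96 h cells, 4.09 in TCDD 72 h cells and 1.95 in ES cells, where 1 is sampling noise. TCDD 72 h cells thus have the least certain Hox values by this measure. Over all genes with at least 50 counts in a group, chi-square per gene was 3.23 in DMSO 24 h, 86.5 in TCDD 24 h, 191.5 in TCDD 72 h, 18.9 in TCDD 96 h and 196.4 in ES cells. Hox counts are few, so Hox values near 1 do not show that replicates agreed closely. Cardiac markers were low for the label: 10 of them summed to 29.4 to 40.6 CPM in the 8 libraries labelled cardiomyocytes against 10.5 to 10.8 CPM in ES cells, and the defining sarcomere genes Tnnt2 and Myl2 did not exceed 0.717 and 0.226 CPM. Of 9 tested cardiac markers, 5 rose and 0 fell in DMSO 24 h against ES cells (edgeR adjusted p under 0.05), against 15.5% of all tested genes in each direction. Myh6, Myh7, Nppa, Actc1 and Tnnt2 were those that rose. Smooth muscle markers summed to 391 to 828 CPM in those 8 libraries and 5.45 and 7.64 CPM in ES cells, and pluripotency markers to 2072 to 3712 CPM against 4145 and 5483 CPM. Whether the mix of cell types moved the Hox values was not tested.

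The comparison of DMSO 24 h cells with ES cells asks which Hox genes changed with differentiation. Of the 24 members that passed the low-count filter, 7 rose and 3 fell (edgeR quasi-likelihood test, Benjamini-Hochberg adjusted p under 0.05 over 15175 genes). Of all tested genes 15.5% rose and 15.5% fell, so the 7 that rose are a larger part of the 24 than of all genes, and the 3 that fell are a similar part. Among the 7 tested genes of paralogues 1 to 3, 5 rose and 0 fell. Among the 9 of paralogues 4 to 8, 2 rose and 1 fell, and among the 8 of paralogues 9 to 13, 0 rose and 2 fell. The median log2 fold change was 3.57, 0.71 and 0.18 in these classes, 0.88 over the 24 members and 0.01 over all tested genes. The filter asked for about 0.408 CPM in 2 libraries of any group, and Hoxb1, Hoxb2, Hoxb3, Hoxb5, Hoxc8 and Hoxd1 were below this level in both ES libraries. They passed the filter through the ES-derived groups alone, and their share among tested members is raised by it. The 15 members that did not pass had 3 to 65 counts over all 10 libraries and 5.61% of all Hox counts.

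Of the 7 genes that rose, 4 were in the Hoxb cluster. Hoxb1 (Entrez 15407, chr11:96365746-96368254), which specifies hindbrain rhombomere 4 and marks posterior heart progenitors, had 2.57 and 2.53 CPM in DMSO 24 h cells, against 0 and 0.049 CPM in ES cells. These are 137 counts against 1, a ratio of 110 with an exact 95% counting interval of 19.4 to 4370 (edgeR adjusted p = 0.000595). Hoxb2 (Entrez 103889, chr11:96351632-96354020), a direct target of Hoxb1 in the hindbrain, had 2.02 and 1.67 CPM in DMSO 24 h cells, against 0.133 and 0.098 CPM in ES cells. Its ratio was 16.2 (6.71 to 50.9, edgeR adjusted p = 0.00369). Hoxb3 (Entrez 15410, chr11:96307101-96347930), which patterns the hindbrain and pharyngeal arches, had 0.764 and 1.34 CPM in DMSO 24 h cells and 0 counts in both ES libraries. Its 53 counts were at least 14.2-fold higher than 3 counts over the ES group (edgeR adjusted p = 0.00674). Hoxb5 (Entrez 15413, chr11:96303512-96306121), a gene of the middle of the cluster, had 0.428 and 0.573 CPM against 0.0886 and 0 CPM in ES cells, 26 counts against 2 (ratio 10.4, 2.61 to 90.6, edgeR adjusted p = 0.0122). In all 4 genes both DMSO 24 h libraries lay above both ES libraries. Exons of the antisense gene Hoxb3os cover 58.5% of the exon length of Hoxb2 and 63.9% of that of Hoxb3. No source used here says whether counting used strand, and these values may hold antisense reads.

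Genes of the Hoxc and Hoxd clusters rose as well. Hoxd1 (Entrez 15429, chr2:74762980-74765142), the Hoxd paralogue of Hoxb1, had 0.367 and 0.287 CPM in DMSO 24 h cells, against 0 and 0.049 CPM in ES cells. Its 18 counts against 1 give a ratio of 14.4 (2.28 to 601, edgeR adjusted p = 0.0119, and 0.061 in DESeq2). Hoxc8 (Entrez 15426, chr15:102990539-102994275), a gene of the thoracic region, had 0.336 and 0.0956 CPM against 0 counts in both ES libraries, at least 3.47-fold higher than 3 counts over the group (edgeR adjusted p = 0.0222). Both DMSO 24 h libraries lay above both ES libraries for Hoxd1 and Hoxc8, although their counts were few.

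The genes that fell were Hoxb13, Hoxc13 and Hoxc4, of which DESeq2 called Hoxb13 alone (DESeq2 adjusted p = 0.0713 for Hoxc13 and 0.108 for Hoxc4). Hoxb13 (Entrez 15408, chr11:96194316-96196610), the most 5′ gene of its cluster and known in the tail bud, hindgut and prostate, had 1.16 and 0.956 CPM in DMSO 24 h cells, against 2.57 and 4.02 CPM in ES cells (log2 fold change -1.62 ± 0.32 SE, edgeR adjusted p = 0.00596). Hoxc13 (Entrez 15422, chr15:102921131-102928814), which is needed for hair and nail, had 1.22 and 1.39 CPM, against 2.79 and 2.50 CPM in ES cells (-1.02 ± 0.29, edgeR adjusted p = 0.0253, and 0.0521 with the GC trend removed). Hoxc4 (Entrez 15423, chr15:103018097-103036856), the most 3′ gene of the Hoxc cluster, had 0.244 and 0.382 CPM, against 0.665 and 1.22 CPM in ES cells (-1.61 ± 0.45, edgeR adjusted p = 0.025). No libraries overlapped for these genes. Hoxd13, the other paralogue 13 gene that was tested, had 1.74 and 1.15 CPM in DMSO 24 h cells and 1.11 and 0.931 CPM in ES cells and did not pass (0.52 ± 0.33, edgeR adjusted p = 0.25). The difference between paralogues 13 was not tested.

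**Figure D3:**
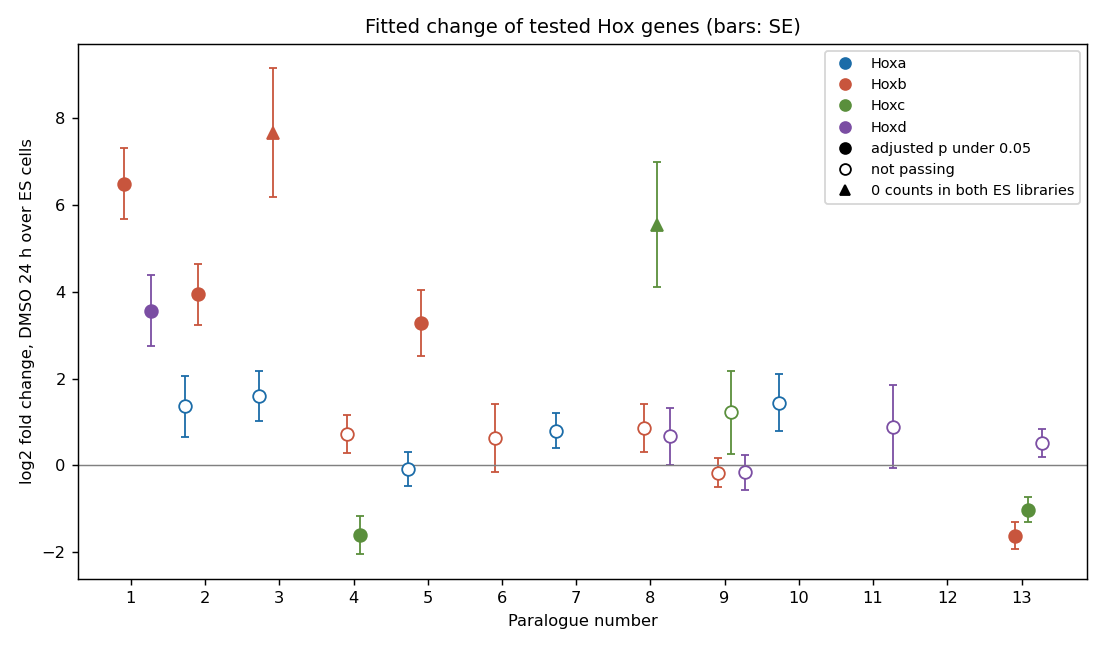
Fitted log2 fold change of DMSO 24 h over ES cells (y axis, bars are SE) for tested Hox genes by paralogue number (x axis), coloured by cluster. Filled symbols passed at an adjusted p under 0.05; those above 0 lie at paralogues 1, 2, 3, 5 and 8 and those below 0 at 4 and 13. For Hoxb3 and Hoxc8 (triangles, 0 counts in both ES libraries) the height depends on the prior count.

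The remaining 14 tested members did not pass. Their log2 fold changes ran from -0.17 for Hoxb9 to 1.59 for Hoxa3, a gene of the pharyngeal arches and the second heart field, which had 0.55 and 0.908 CPM in DMSO 24 h cells and 0.133 and 0.343 CPM in ES cells (edgeR adjusted p = 0.065). Hoxb9, a thoracic gene, had 1.93 and 2.25 CPM in DMSO 24 h cells and 2.75 and 1.91 CPM in ES cells, which overlap. Among the untested members Hoxd4 had 15 counts in DMSO 24 h cells and 0 in ES cells. The count of 10 fell to 5 without DMSO 24 h replicate 1, to 5 without DMSO 24 h replicate 2 and to 6 without ES replicate 2. Hoxb1, Hoxb2 and Hoxb3 passed without each of these libraries in turn. Hoxb5, Hoxc4 and Hoxc13 lost their call in each of these 3 fits. Hoxb13 lost its call without DMSO 24 h replicate 2, and Hoxd1 without DMSO 24 h replicate 1. Hoxc8 lost its call without DMSO 24 h replicate 1 and also without ES replicate 2. A smaller part of all tested genes also passed in each of these 3 fits than in the main fit. Without the 3 libraries that stood apart, which leaves 1 ES library, 13 of 27 tested Hox genes passed, 9 of them among the 10, where 52.1% of all tested genes passed.

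The comparison of TCDD 24 h with DMSO 24 h cells is the one with vehicle cells of the same age. No Hox gene passed (edgeR, 0 of 24, with 7 at an unadjusted p under 0.05), and 0% of all tested genes passed, with 1296 at an unadjusted p under 0.05. The lowest edgeR adjusted p among Hox genes was 0.521. DESeq2 also called 0 Hox genes in this comparison and in those of TCDD 72 h and TCDD 96 h with DMSO 24 h cells. It tested 12, 21 and 13 Hox genes there and called 0.282%, 1.84% and 1.58% of all genes it tested. At those shares, 0 of so few Hox genes does not set them apart from all genes. Estimates lay mostly below 0: the median log2 fold change was -0.63 over the 24 members and 0.02 over all genes, and 6 of 24 estimates were above 0 against 51.7% of all genes. For 11 of the 24 members both TCDD 24 h libraries lay below both DMSO 24 h libraries, against 33.0% of all tested genes, and for 1 member, Hoxc4, they lay above, against 35.5% of all tested genes. By class the median was -1.23 in paralogues 1 to 3, -0.16 in paralogues 4 to 8 and -0.06 in paralogues 9 to 13.

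Single members show the size of this difference, among them Hoxa5 with only 14 counts against 42. Hoxb1 had 1.11 and 1.05 CPM in TCDD 24 h cells, against 2.57 and 2.53 CPM in DMSO 24 h cells (log2 fold change -1.23 ± 0.46 SE, edgeR adjusted p = 0.521). Hoxb2 had 0.806 and 0.616 CPM, against 2.02 and 1.67 CPM in DMSO 24 h cells (-1.38 ± 0.53). For both genes the TCDD 24 h libraries lay below both DMSO 24 h libraries. Hoxb9 had 1.42 and 0.725 CPM in TCDD 24 h cells, against 1.93 and 2.25 CPM in DMSO 24 h cells (-0.96 ± 0.35), and Hoxa5, a thoracic and lung gene, had 0.307 and 0.217 CPM, against 0.856 and 0.669 CPM (-1.54 ± 0.44). At the 5′ end, Hoxd13 had 1.5 and 1.81 CPM in TCDD 24 h cells, against 1.74 and 1.15 CPM in DMSO 24 h cells, and Hoxc13 had 1.23 and 1.16 CPM, against 1.22 and 1.39 CPM, and both overlapped. Hoxb4 (log2 fold change -0.157 ± 0.415 SE) and Hoxb13 (0.244 ± 0.332) overlapped as well. Without the 3 libraries that stood apart, which leaves 1 TCDD 24 h library assumed to vary like the others, 4 Hox genes passed as lower, Hoxb1, Hoxb2 and Hoxb9 among them (edgeR adjusted p = 0.0355, 0.0338 and 0.0299). In that fit 4.98% of all tested genes passed.

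**Figure D4:**
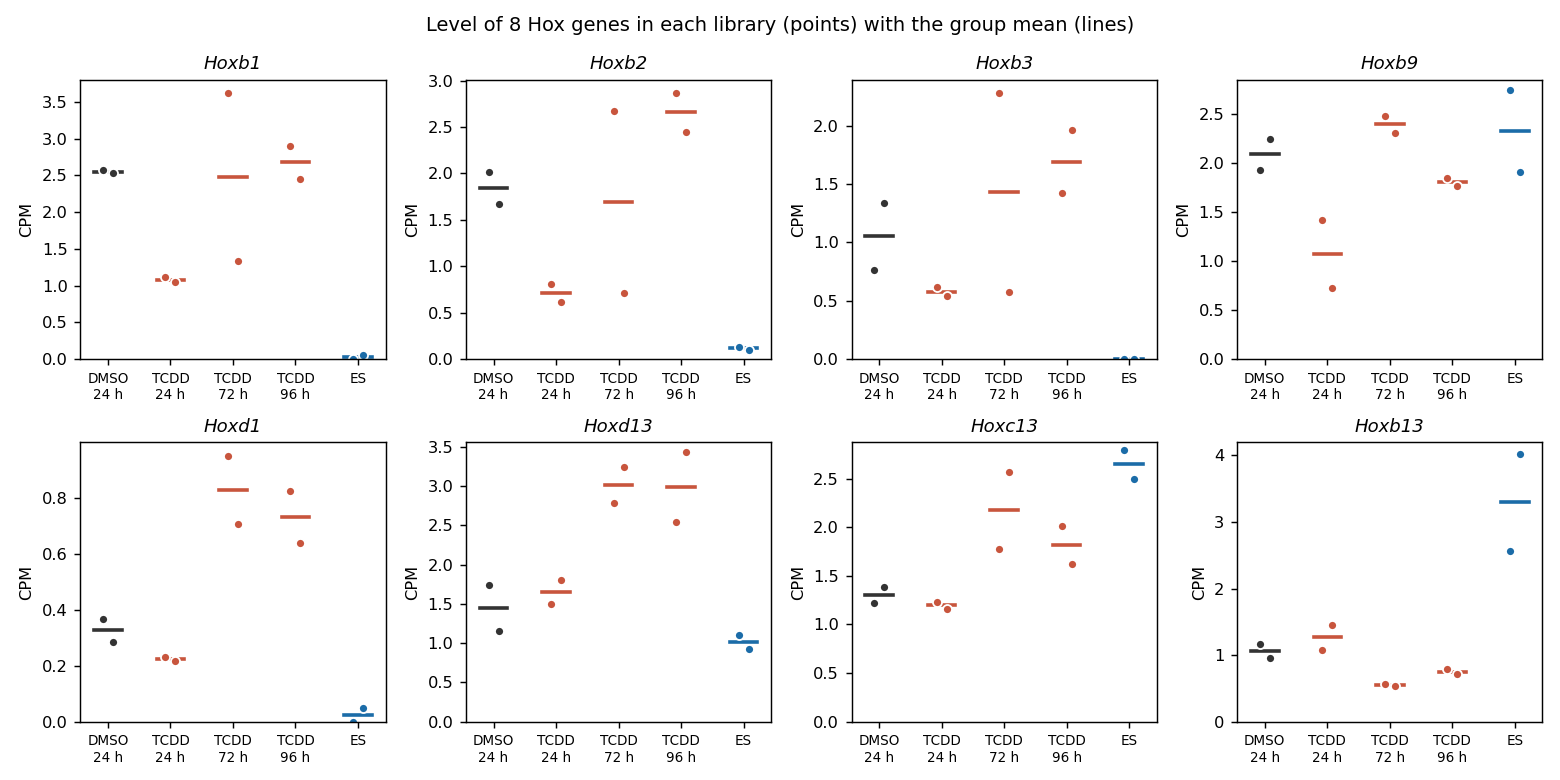
CPM of 8 Hox genes (panels, y axis from 0) in each library (points) with the group mean (lines), for DMSO 24 h, the 3 TCDD times and ES cells. Hoxb2 lies at 0.806 and 0.616 CPM in TCDD 24 h cells and at 2.87 and 2.45 CPM in TCDD 96 h cells, on both sides of the 2.02 and 1.67 CPM of DMSO 24 h cells; the TCDD 72 h libraries lie far apart for Hoxb1, Hoxb2 and Hoxb3.

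In TCDD 72 h against DMSO 24 h cells, no Hox gene passed (edgeR, 0 of 24, with 5 at an unadjusted p under 0.05), and 0.0461% of all tested genes did, with 2215 at an unadjusted p under 0.05. The median log2 fold change was 0.45 over the 24 members and 0.03 over all genes. Both TCDD 72 h libraries lay above both DMSO 24 h libraries for 10 members, against 29.0% of all tested genes, and below for 2 members, Hoxb13 among them, against 26.6% of all tested genes. The lowest adjusted p belonged to Hoxd13, with 2.79 and 3.24 CPM in TCDD 72 h cells, against 1.74 and 1.15 CPM in DMSO 24 h cells (log2 fold change 1.04 ± 0.31 SE, edgeR adjusted p = 0.183). The 5 tested Hoxd genes had a median of 1.20, with estimates above 0 in all 5. For the anterior Hoxb genes the TCDD 72 h libraries disagreed: Hoxb1 had 3.62 and 1.33 CPM, Hoxb2 2.67 and 0.709 CPM and Hoxb3 2.28 and 0.576 CPM in replicates 1 and 2, so that replicate 1 lay above both DMSO 24 h libraries and replicate 2 below both. Hoxa2, a gene of hindbrain and second pharyngeal arch, had 1.21 and 0.31 CPM. Replicate 1 is the library with the high share of Rn45s. Without the 3 libraries that stood apart, TCDD 72 h replicate 2 is the lone library of its group and is assumed to vary like the others. In that fit Hoxb2, for which the library left out lay above DMSO 24 h cells, passed as lower and Hoxc13 and Hoxd13 as higher (edgeR adjusted p = 0.0285, 0.0462 and 0.0431), and 12.8% of all tested genes passed.

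In TCDD 96 h against DMSO 24 h cells, no Hox gene passed (edgeR, 0 of 24, with 5 at an unadjusted p under 0.05), and 0.0857% of all tested genes did, with 1850 at an unadjusted p under 0.05. The median log2 fold change was 0.50 over the 24 members and 0.01 over all genes. Libraries lay higher without overlap for 13 members, against 34.5% of all tested genes, and lower for 2 members, Hoxb9 and Hoxb13, against 32.2% of all tested genes. Hoxd13 again had the lowest adjusted p, with 2.54 and 3.43 CPM in TCDD 96 h cells, against 1.74 and 1.15 CPM in DMSO 24 h cells (1.02 ± 0.30 SE, edgeR adjusted p = 0.194). Hoxb1, at 2.90 and 2.45 CPM, overlapped with the 2.57 and 2.53 CPM of DMSO 24 h cells. Hoxb6, a gene of the middle of its cluster, had 0.395 and 0.716 CPM, against 0.214 and 0.143 CPM in DMSO 24 h cells (1.56 ± 0.60 SE, edgeR adjusted p = 0.318). Hoxd13 and 1 other member passed as higher when only the 4 libraries compared were fitted (29.9% of all tested genes passed) and without the 3 libraries that stood apart (28.6% passed). Without the 3 libraries the edgeR adjusted p was 0.0165 for Hoxd13.

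TCDD 96 h and TCDD 24 h cells were both exposed and differ in time. No Hox gene passed (edgeR, 0 of 24), and 0% of all tested genes passed, but 14 of 24 Hox genes had an unadjusted p under 0.05, against 1761 of the 15175 genes. The median log2 fold change was 1.25 over the 24 members and 0.03 over all genes, and 22 of 24 estimates were above 0 against 52.6% of all genes. Both TCDD 96 h libraries lay above both TCDD 24 h libraries for 21 members, against 31.2% of all tested genes. They lay below for 2 members, Hoxb13 and Hoxc4, against 29.4% of all tested genes, and only Hoxb4 overlapped. All 7 tested genes of paralogues 1 to 3 had an unadjusted p under 0.05, with a median of 1.53. The lowest edgeR adjusted p among Hox genes was 0.218. Hoxb2 had 2.87 and 2.45 CPM in TCDD 96 h cells, against 0.806 and 0.616 CPM in TCDD 24 h cells (log2 fold change 1.90 ± 0.52 SE, edgeR adjusted p = 0.277). Hoxa2 had 0.593 and 0.64 CPM, against 0.115 and 0.109 CPM in TCDD 24 h cells (2.41 ± 0.69 SE, edgeR adjusted p = 0.292). Genes of a cluster lie side by side and are not independent, so these counts are a description. In DESeq2 1 of 8 tested Hox genes passed, against 0.868% of all genes tested there. With the GC trend removed 1 of 24 passed, against 0.612% of all tested genes. Without the 3 libraries that stood apart 7 passed as higher, among them Hoxa2, Hoxa5, Hoxb1, Hoxb2, Hoxb3 and Hoxb9, where 11.9% of all tested genes passed.

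Upstream of the clusters, 12 of 23 tested regulators rose (52.2%, against 15.5% of all tested genes) and 3 fell (13%, against 15.5%) in DMSO 24 h against ES cells. The list was chosen with earlier results of these data known, so its share is a description. Cdx2 was below the filter level of about 0.408 CPM in both ES libraries, and members that pass through other groups alone raise the share that rose. Cdx2, a caudal-type factor that binds and opens Hox clusters, had 4.13 and 4.21 CPM in DMSO 24 h cells, against 0.177 and 0.196 CPM in ES cells (log2 fold change 4.45, edgeR adjusted p = 7.45e-05). Genes of the retinoic acid pathway rose as well: Crabp2, which carries retinoic acid to the nucleus, had 15.0 and 14.9 CPM against 1.15 and 2.20 CPM, and Cyp26a1, which degrades it, had 3.67 and 3.82 CPM against 0.975 and 0.441 CPM in ES cells (3.16 and 2.38, edgeR adjusted p = 0.000845 and 0.00119). Cdx1 fell, to 5.44 and 6.31 CPM in DMSO 24 h cells, against 10.2 and 16.0 CPM in ES cells (-1.16). The members that rose thus include both an activator of Hox genes and an enzyme that removes retinoic acid.

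Among 10 cofactors and partners of Hox proteins, 2 rose and 2 fell in DMSO 24 h against ES cells. In each direction this is 20%, against 15.5% of all tested genes. Meis3, a TALE-class cofactor, had 7.12 and 7.69 CPM in DMSO 24 h cells, against 1.06 and 2.11 CPM in ES cells (log2 fold change 2.23, edgeR adjusted p = 0.0022). Pknox2 (-1.32) and Pbx4 (-1.52), of the same class, fell (edgeR adjusted p = 0.00379 and 0.0133). Of 33 chromatin regulators, 3 rose (9.09%) and 8 fell (24.2%), against 15.5% of all tested genes in each direction. Wdr5, a core subunit of the MLL complexes that methylate histone H3 at active Hox genes, had 196 and 190 CPM in DMSO 24 h cells, against 421 and 627 CPM in ES cells (-1.44, edgeR adjusted p = 0.00246). Its partner Rbbp5 (-0.69) and the Polycomb genes Kdm2b (-0.94) and Pcgf2 (-1.23) also fell (edgeR adjusted p = 0.0181, 0.00733 and 0.0187). The 3 that rose were Yaf2 (0.81) and Pcgf6 (0.71), both of Polycomb complexes, and Kdm6a (1.43), a demethylase that removes the Polycomb mark (edgeR adjusted p = 0.0241, 0.0335 and 0.0421). Polycomb genes thus passed in both directions.

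Of 17 non-coding RNA genes of the clusters in the table, 4 were tested. In DMSO 24 h against ES cells 0 rose and 1 fell (25% of 4, against 15.5% of all tested genes). This was the miRNA gene Mir196a-1, which lies between Hoxb13 and Hoxb9 and had 0.0917 and 0.191 CPM in DMSO 24 h cells, against 0.931 and 0.735 CPM in ES cells, or 7 counts against 36 (log2 fold change -2.60, edgeR adjusted p = 0.0118). Both DMSO 24 h values are below the filter level of about 0.408 CPM, and members that pass through other groups alone raise the share that fell. Hoxb13, on the 5′ side of this miRNA gene, also fell, while Hoxb9 on its 3′ side did not pass. Its mature product is shown with that of Mir196b in the Hoxa cluster, because both share the seed (bases 2 to 8, in capitals) with which miR-196 recognises Hoxb8 and other Hox messages.
miR-196a-5p: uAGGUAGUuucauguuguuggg
miR-196b-5p: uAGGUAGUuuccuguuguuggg
Counts of polyadenylated RNA at the hairpin do not measure the mature miRNA. Mir196b and Mir196a-2 had 0 counts in all 10 libraries. Hoxb8, a known miR-196 target, had 0.275 and 0.335 CPM in DMSO 24 h cells and 0.133 and 0.196 CPM in ES cells (0.86 ± 0.55 SE, edgeR adjusted p = 0.272).

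No gene of these lists passed in any TCDD comparison. The non-coding RNA Halr1, which lies beyond the 3′ end of the Hoxa cluster, came closest among the cluster RNAs. It had 1.8 and 2.35 CPM in TCDD 24 h cells, 2.41 and 1.68 CPM in TCDD 72 h cells and 1.98 and 1.81 CPM in TCDD 96 h cells, against 6.66 and 7.45 CPM in DMSO 24 h cells. The log2 fold changes were -1.76, -1.80 and -1.89 (edgeR adjusted p = 0.386, 0.107 and 0.0814), the 6 TCDD libraries lay below both DMSO 24 h libraries, and the 3 comparisons share the DMSO 24 h libraries. ES cells had 9.62 and 4.65 CPM. Halr1 was thus low in all TCDD groups. Hotairm1, an antisense RNA of the Hoxa cluster, had 1.35 and 1.66 CPM in TCDD 96 h cells, against 0.73 and 0.543 CPM in TCDD 24 h cells (1.23, edgeR adjusted p = 0.261).

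Among regulators, T (Brachyury), the primitive streak factor, had 27.4 and 7.14 CPM in TCDD 72 h cells and 13.7 and 13 CPM in TCDD 96 h cells, against 2.23 and 2.34 CPM in DMSO 24 h cells (log2 fold changes 2.91 and 2.55, edgeR adjusted p = 0.107 and 0.0966). Markers of primitive streak and paraxial mesoderm, 8 genes with T among them, summed to 32.1 and 31.6 CPM in TCDD 24 h cells, 65.0 and 36.9 CPM in TCDD 72 h cells and 49.0 and 44.2 CPM in TCDD 96 h cells, against 31.7 and 31.6 CPM in DMSO 24 h cells. ES cells had 63.5 and 60.8 CPM of these markers. Whether cells with these markers contributed to the Hox values was not tested. Cdx2 had 8.60 and 7.08 CPM in TCDD 96 h cells, against 4.13 and 4.21 CPM in DMSO 24 h cells (0.91, edgeR adjusted p = 0.176). Aldh1a2, the main enzyme that makes retinoic acid in the embryo, had 0.698 and 1.06 CPM in TCDD 72 h cells, against 3.03 and 2.48 CPM (-1.62, edgeR adjusted p = 0.125). Cdx1 had 3.30 and 3.62 CPM in TCDD 24 h cells, against 5.44 and 6.31 CPM in DMSO 24 h cells (-0.76, edgeR adjusted p = 0.521). Rdh10, which makes the precursor of retinoic acid, had 14.3 and 16.9 CPM in TCDD 96 h cells, against 6.49 and 8.51 CPM in TCDD 24 h cells (1.05, edgeR adjusted p = 0.242).

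Meis2, a TALE-class cofactor of the developing heart, had 21.1 and 19.8 CPM in TCDD 96 h cells, against 5.68 and 7.93 CPM in TCDD 24 h cells (log2 fold change 1.58, edgeR adjusted p = 0.25). Pknox2 had 7.97 and 9.57 CPM in TCDD 96 h cells, against 4.80 and 4.78 CPM in DMSO 24 h cells (0.87, edgeR adjusted p = 0.168). The chromatin genes with the lowest adjusted p were Phf19, a Polycomb accessory protein, with 21.8 and 31.2 CPM in TCDD 72 h cells against 52.6 and 56.4 CPM in DMSO 24 h cells (-1.04, edgeR adjusted p = 0.162), and Yaf2, a Polycomb partner, with 19.6 and 19.2 CPM in TCDD 96 h cells against 12.5 and 11.6 CPM (0.69, edgeR adjusted p = 0.222). Suz12, a core subunit of the complex that deposits H3K27 methylation, had 76.1 and 180 CPM in TCDD 24 h cells, against 346 and 359 CPM in DMSO 24 h cells (-1.46, edgeR adjusted p = 0.521), and its TCDD 24 h replicates differed widely.

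Of 17 tested genes that flank the clusters, 3 rose and 0 fell in DMSO 24 h against ES cells. The 17.6% that rose is close to the 15.5% of all tested genes. Evx1 was below the filter level of about 0.408 CPM in both ES libraries, and members that pass through other groups alone raise this share. Evx1, a homeobox gene beyond the 5′ end of the Hoxa cluster (chr6:52313498-52318389), had 5.16 and 4.83 CPM in DMSO 24 h cells, against 0.266 and 0.245 CPM in ES cells (log2 fold change 4.26, edgeR adjusted p = 0.00144). Of its neighbours in the cluster, Hoxa13 had 0.122 and 0.0478 CPM in DMSO 24 h cells and 0.0443 and 0.098 CPM in ES cells, which overlap, and Hoxa10 did not pass. Snx10 (1.56) and Cbx1 (1.21) also rose (edgeR adjusted p = 0.0109 and 0.0165). In the TCDD comparisons no flanking gene passed. Calcoco2, an autophagy receptor beside the Hoxb cluster, had 34.1 and 87.9 CPM in TCDD 72 h cells, against 154 and 152 CPM in DMSO 24 h cells (-1.32, edgeR adjusted p = 0.169), and Ttll6 had 4.26 and 4.60 CPM in TCDD 24 h cells, against 8.34 and 8.51 CPM (-0.93, edgeR adjusted p = 0.521).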

How the data were processed

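Per the labels' protocols, polyadenylated RNA was made into strand-marking libraries with 8 PCR cycles and read as 51 bp single reads. The deposited values are whole-number counts per gene, not normalized by the authors. Per the submitters' processing notes, the tools included TopHat, bcl2fastq, CASAVA 1.8 and edgeR, with the build mm10. Neither the counting tool nor its strand setting is given in the sources used. The unnamed line of the table (0.000201 to 0.00285% of counts) was left out, and depth was 15326612 to 31192459 counts.

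The counts entered edgeR 4.0.16 under R 4.3.3: quasi-likelihood test, all 10 libraries, 5 group means, TMM factors, the default expression filter (15175 genes, 61.8%), robust dispersion, 5 residual degrees of freedom, two-sided p adjusted by Benjamini-Hochberg within each of 5 comparisons, called under 0.05. The fit was tested on simulated data. CPM use TMM-scaled library sizes, and levels per kb the union exon length of the GENCODE vM21 basic annotation. Gene spans, promoter windows and miRNAs are from RefSeq GRCm38.p6. Intervals of count ratios are exact at 95% and, like the limit of 3 counts for a count of 0, cover counting error only. PCR reads are not independent molecules. Named were members past the threshold, the 2 highest per length in each cluster, and for each list up to 4 genes against ES cells and up to 2 in each TCDD comparison by smallest p. A few of these genes are left unreported. Other genes named were chosen after their values were seen. The Hox members, the lists and the tests were chosen with earlier results of these data known. Alternatives were other scaling, filters, thresholds, DESeq2 1.42.0, a replicate block, fewer libraries and, added after seeing the data, a loess GC correction with a span of 0.3.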

Additional observations from a re-analysis of the deposited data

Results flagged for a closer look

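For 6 Hox genes given here, both libraries of TCDD cells lay below both DMSO 24 h libraries at one time and above them at another, or the other way round. All these comparisons share the 2 DMSO 24 h libraries. Of all tested genes, 33.0% lay below DMSO 24 h without overlap at TCDD 24 h and 29.0% above it at TCDD 72 h. At TCDD 96 h, 34.5% lay above and 32.2% below. The share of all tested genes that changed sides between times was not counted, so these reversals are not shown to be particular to Hox genes. Between TCDD 96 h and TCDD 24 h cells, the log2 difference was 2.41 for Hoxa2, 1.90 for Hoxb2, 1.53 for Hoxb3 and 1.69 for Hoxd1, with all 4 below DMSO 24 h at 24 h and above it at 96 h. In the test of this difference the edgeR adjusted p was 0.292, 0.277, 0.406 and 0.292 for these genes. Between TCDD 72 h and TCDD 24 h cells, the difference was 1.15 for Hoxb9, 1.85 for Hoxd1 and 2.89 for Hoxd8, and it was not tested. Between TCDD 96 h and TCDD 72 h cells, the difference was -0.40 for Hoxb9, which lay above DMSO 24 h at 72 h and below it at 96 h, and it was not tested. Hoxd8 rests on few counts, with 22 in TCDD 72 h cells, 4 in TCDD 24 h cells and 12 in DMSO 24 h cells.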

How the results depend on the processing

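In DMSO 24 h against ES cells, 10 Hox genes passed; the count was 5 at an adjusted p under 0.01, 6 with a filter of 1 CPM in 2 libraries, 5 with only the 4 libraries compared, and 5 to 12 when each library was left out in turn. Other settings gave 8 (DESeq2, 7 higher and 1 lower) to 13 (without the 3 libraries that stood apart). Of all tested genes, 31% passed in the main fit and 15.1% at an adjusted p under 0.01. In DESeq2 29% of all tested genes passed, and 31 Hox genes were tested. When each library was left out in turn, the share of all tested genes that passed also varied. With the filter of 1 CPM in 2 libraries 32.2% of all tested genes passed, and 10 Hox genes were tested. With only the 4 libraries compared 16.2% passed, and 15 Hox genes were tested. Deviations of same-numbered libraries correlated at -0.755 to 0.448 over 10 pairs of groups, 2 of them over 0.1, with no common sign. The lowest value was between ES and TCDD 24 h cells and the highest between TCDD 24 h and TCDD 96 h cells. Whether libraries were paired cannot be decided from these values, because ES replicate 2 and TCDD 24 h replicate 1 carry a GC trend. With the replicate block 10 passed, the same genes, and 11 with the GC trend removed as well; in the TCDD comparisons the replicate block gave 0. Without the 3 libraries that stood apart, 4 Hox genes passed for TCDD 24 h, 3 for TCDD 72 h and 2 for TCDD 96 h against DMSO 24 h, and 7 for TCDD 96 h against TCDD 24 h; for TCDD 96 h against DMSO 24 h 2 passed with only the 4 libraries compared. For TCDD 96 h against TCDD 24 h, 1 of 8 tested Hox genes passed in DESeq2, against 0.868% of all genes tested there. With the GC trend removed 1 of 24 passed, against 0.612% of all tested genes. These fits have fewer libraries or another spread between them; the cause of each change was not tested. Counts under 20 in a group limit what could be detected for most members of the Hoxc and Hoxd clusters.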
